A study of Mus musculus with 6 samples.

Results

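Heat shock and chaperone genes were described in RNA from F4/80-positive cells of the mouse stomach corpus, taken by name from the table of expression values. A gene was a member where its symbol began with Hspa, Hspb, Hspd, Hspe, Hsph, Hsp90, Dnaja, Dnajb or Dnajc, or was Tcp1, Cct2, Cct3, Cct4, Cct5, Cct6a, Cct7, Cct8, Bag3 or Hsf1. This gave 85 rows of 23049, with 84 symbols on 19 chromosomes, because Hspa14 is listed on 2 rows. The rule uses names and no measured value, but it was set with earlier results of these data known.

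The cells came from mice given L635 (3 libraries) or DMP-777 (3 libraries), small molecules under which parietal cells, the acid producers of the stomach, are lost. The analog L635 is known to lack the inhibition of neutrophil elastase that DMP-777 has. Per the design text of the series, L635 was used to bring about intestinalized SPEM and DMP-777 to bring about SPEM, a metaplasia in which spasmolytic polypeptide is expressed. The sources used here do not give mouse strain, age, dose or duration of treatment, nor the number of animals behind a library, so p-values measure the spread between these libraries, part of which may be technical. Both groups share the dispase digestion and the F4/80 sort, and no untreated group was analysed here.

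Chaperones bind proteins that are unfolded or newly made and hold or refold them. HSP70 proteins do so in cycles of ATP binding and release, which J-domain proteins start and nucleotide exchange factors end, while HSP90 finishes the folding of kinases and receptors and the barrel-shaped CCT and HSP60 chaperonins enclose their clients. The transcription factor HSF1 drives the inducible members when proteins unfold in the cytosol, and ATF6 and XBP1 drive the chaperones of the endoplasmic reticulum when unfolding happens there. Warm enzymatic digestion of tissue is known to raise the inducible members in isolated cells.

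Of 12102 genes tested with limma on log2(RPKM + 1), where RPKM is reads scaled by gene length and library size, 0 passed a Benjamini-Hochberg adjusted p of 0.05 (0.0% called), and the lowest adjusted p was 0.308. Without adjustment, 1223 genes (10.1%) had p below 0.05. No member passed the adjusted threshold, and the lowest adjusted p among them was 0.443, so the differences below are values and not calls. The median 95% interval of a member's log2 fold change (L635 minus DMP-777) reached 0.80 to either side, which is the precision that 3 libraries against 3 gave. Signs are those on the deposited scale. Of the 70 tested members, 19 had the other sign after quantile normalization, 20 with libraries scaled to the same RPKM sum, which moved the median of all tested genes to 0.24, and 4 after centring each library on its median.

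Levels differed far more between members than between the treatments. The cytosolic HSP90 gene Hsp90ab1 was the most abundant member and the constitutive HSP70 gene Hspa8 the next in all 6 libraries. Per length, 6 members averaged 100 RPKM or more, 33 averaged 10 to 100 and 46 averaged under 10. Together the members summed to 2301, 2290 and 2108 RPKM in L635 replicates 1, 2 and 3, against 2257, 2493 and 2307 RPKM in replicates 1, 2 and 3 of DMP-777, and these ranges overlapped. As a share of all RPKM in the library the members held 0.946%, 1.06% and 1.03% in L635, against 0.876%, 0.843% and 0.903% in DMP-777. The shares did not overlap, and the total RPKM did not either, at 204413 to 243227 in L635 against 255443 to 295675 in DMP-777. The lowest deposited value was exactly 1 in each library, a floor, and 63 members lay above it in all 6 libraries, 4 in none and 11 in only 1 or 2. Tests were made on the 70 members above it in at least 3 libraries. The 15 members not tested reached at most 5.83 RPKM in any library (Dnajc5b, in DMP-777 replicate 1).

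**Figure D1:**
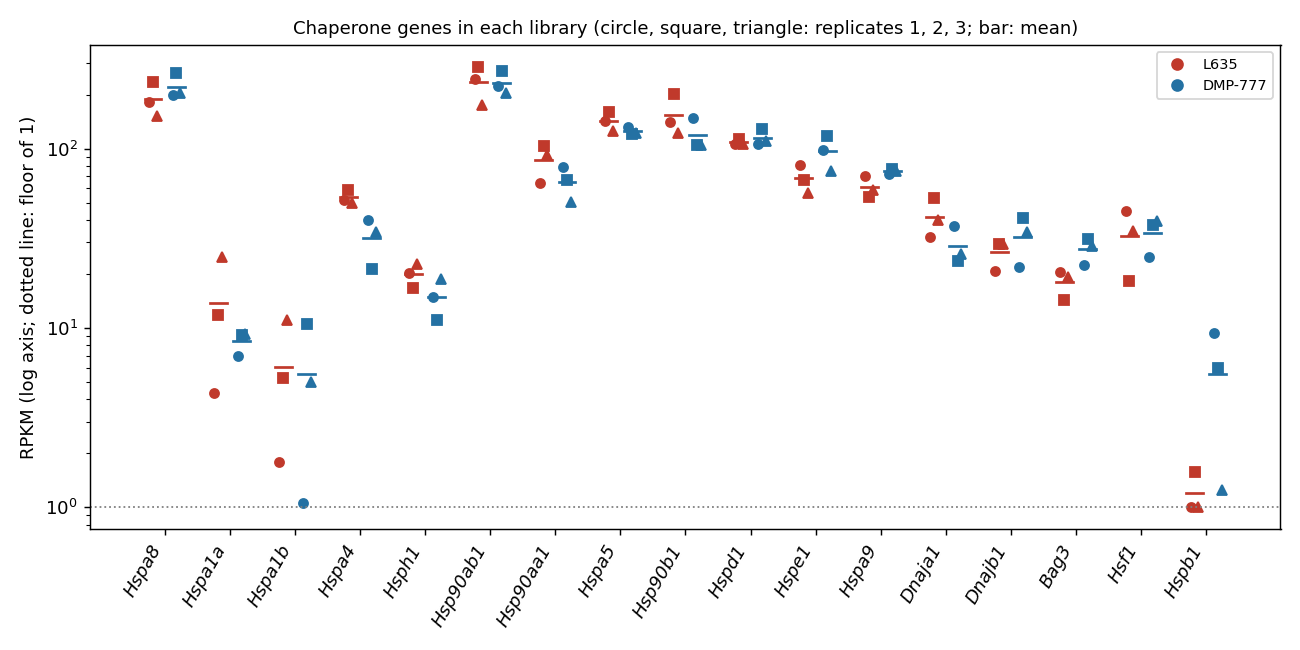
RPKM (log axis) of 17 chaperone genes in each library, L635 in red left of DMP-777 in blue; circle, square and triangle are replicates 1, 2 and 3, short bars are group means, and the dotted line is the floor of 1. The highest member, Hsp90ab1, reaches 286 RPKM and Hspb1 lies at the floor in 2 L635 libraries, while Hspd1 and Hspa5 hardly vary over the libraries and Hspa1a, Hspa1b and Hspb1 vary widely.

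Promoters of a few members are shown because they carry the response elements by which the cytosolic and the endoplasmic reticulum stress responses are told apart, and because the members that hold each element can then be compared. RefSeq promoter windows of 300 bases around the transcription start (GRCm38.p6, each printed 5′ to 3′ on the strand of its gene) were found for 68 members, 87 windows in all. Members without a window, among them Hspa8 and Hsp90aa1, were not searched and are in no count by promoter. The heat shock element was searched on both strands as the cores GAANNTTC and TTCNNGAA, which can overlap each other, and as a 3-unit form in which GAA, TTC and GAA follow each other with 2 bases of any kind between units, or its reverse complement. The ER stress element was searched on both strands as CCAAT and CCACG with 9 bases of any kind between them. Capitals mark the matches.

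The ER stress element was found in the windows of 3 members, Hspa5 (chr2:34771840-34772139, plus strand), Hsp90b1 (chr10:86705395-86705694, minus strand) and Dnajc3 (chr14:118937682-118937981, plus strand). These are 3.45% of the members' windows, against 0.119% of 32851 windows of all genes.
Hspa5: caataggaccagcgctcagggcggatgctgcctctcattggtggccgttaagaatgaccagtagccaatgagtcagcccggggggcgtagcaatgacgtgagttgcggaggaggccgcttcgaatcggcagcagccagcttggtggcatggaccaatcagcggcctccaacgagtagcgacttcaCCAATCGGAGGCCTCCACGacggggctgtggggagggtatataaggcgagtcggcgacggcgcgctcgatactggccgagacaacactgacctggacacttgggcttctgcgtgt
Hsp90b1: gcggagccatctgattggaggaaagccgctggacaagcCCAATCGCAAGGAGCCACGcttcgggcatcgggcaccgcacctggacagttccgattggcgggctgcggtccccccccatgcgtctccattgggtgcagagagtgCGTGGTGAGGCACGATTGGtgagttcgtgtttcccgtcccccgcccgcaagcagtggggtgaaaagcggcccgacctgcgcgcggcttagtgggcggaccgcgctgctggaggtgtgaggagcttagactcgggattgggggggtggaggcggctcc
Dnajc3: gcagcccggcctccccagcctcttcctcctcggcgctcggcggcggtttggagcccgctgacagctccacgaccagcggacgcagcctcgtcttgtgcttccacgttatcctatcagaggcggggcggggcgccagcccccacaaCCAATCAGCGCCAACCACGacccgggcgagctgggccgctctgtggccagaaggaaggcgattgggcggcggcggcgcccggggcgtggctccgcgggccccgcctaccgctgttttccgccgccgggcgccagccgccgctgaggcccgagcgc

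A heat shock element core in either form was found in 22 of the members' windows (25.3%), against 15.1% of all windows. The 3-unit form was found in 6 windows of 4 genes, Hsph1, Dnajb6, Hspd1 and Hspe1, which are 6.90% of the members' windows against 0.603% of all. The windows shown are those of Hsph1 (chr5:149636287-149636586, minus strand), Hspe1 (chr1:55087898-55088197, plus strand) and Hspa1a (chr17:34972107-34972406, minus strand). Hspe1 and Hspd1 lie head to head with an overlap of 112 bases, so that the element in the Hspe1 window is also that of Hspd1. Hspa1a is shown as the classic inducible member and its window holds 1 core. The window of its neighbour Hspa1b differs from it at 4 of 300 bases (98.7% identical) and holds the same core.
Hsph1: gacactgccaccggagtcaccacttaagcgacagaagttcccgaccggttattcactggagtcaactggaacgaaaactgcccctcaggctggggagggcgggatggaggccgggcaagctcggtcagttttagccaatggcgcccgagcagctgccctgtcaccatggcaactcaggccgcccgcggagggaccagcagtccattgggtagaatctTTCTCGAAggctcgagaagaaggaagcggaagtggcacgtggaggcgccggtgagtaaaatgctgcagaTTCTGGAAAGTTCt
Hspe1: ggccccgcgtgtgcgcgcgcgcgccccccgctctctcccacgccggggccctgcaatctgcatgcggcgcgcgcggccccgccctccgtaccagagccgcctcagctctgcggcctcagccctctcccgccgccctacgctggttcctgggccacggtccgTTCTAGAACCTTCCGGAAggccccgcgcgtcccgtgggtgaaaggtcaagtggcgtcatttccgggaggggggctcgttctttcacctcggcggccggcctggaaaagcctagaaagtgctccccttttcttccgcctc
Hspa1a: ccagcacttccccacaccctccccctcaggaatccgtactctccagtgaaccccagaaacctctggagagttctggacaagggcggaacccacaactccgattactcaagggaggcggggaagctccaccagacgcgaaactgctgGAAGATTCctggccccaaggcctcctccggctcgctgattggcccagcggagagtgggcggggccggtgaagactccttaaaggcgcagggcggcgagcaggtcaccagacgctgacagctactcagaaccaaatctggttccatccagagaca

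The inducible HSP70 genes, which unstressed cells keep low, differed more between libraries of 1 treatment than between the treatments. Hspa1a, on chromosome 17 from 34969199 to 34972154, had 4.32, 11.9 and 24.9 RPKM in L635 replicates 1, 2 and 3, against 7.00, 9.11 and 9.21 RPKM in DMP-777. The L635 libraries enclosed those of DMP-777 on both sides, and the log2 fold change was 0.37 (95% interval -0.76 to 1.49, adjusted p = 0.832 by limma). Leaving out L635 replicate 3 gave -0.18, and leaving out L635 replicate 1 gave 0.96. Hspa1b, which encodes nearly the same protein, had 1.79, 5.22 and 11.1 RPKM in L635, against 1.05, 10.5 and 4.97 RPKM in DMP-777. It overlapped too, with a log2 fold change of 0.19 and an interval from -1.27 to 1.66 (adjusted p = 0.938 by limma). Of 50-base stretches of the Hspa1a transcript, 66.3% also occur in transcripts of other genes, 58.8% in Hspa1b, so how reads were divided between both is uncertain. The testis-enriched Hspa2 and Hspa1l, the neighbour of Hspa1a, stayed near the floor, with at most 4.04 and 1.46 RPKM in any library.

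Immediate early genes, which dissociation also raises, were measured beside them. In L635 replicate 3, where Hspa1a and Hspa1b were highest, Fos, Jun and Atf3 were at 130, 85.0 and 66.2 RPKM, the highest of the 6 libraries for each. In L635 replicate 1, where Hspa1a was lowest, Fos and Jun were at 36.3 and 28.0 RPKM, the lowest of the 6 for each, while Atf3, at 17.5 RPKM, was not at its lowest. Of the 15 early genes, 5 were highest in L635 replicate 3 and 6 in L635 replicate 2, and 8 were lowest in L635 replicate 1. Across the groups the early genes did not follow 1 direction: of 15 tested, 9 were higher in L635 and 6 were lower (median log2 fold change 0.15). Their summed level was 629 to 1164 RPKM in L635 and 662 to 1096 RPKM in DMP-777. Egr1, at 31.3, 36.0 and 64.2 RPKM in L635 against 66.7, 103 and 87.0 RPKM in DMP-777, was the only early gene on this list whose groups lay apart (adjusted p = 0.414 by limma). That is 6.67% of the list, where 16.0% of all tested genes lay apart. Whether digestion has a part in the spread of Hspa1a was not tested.

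Hspa8, the constitutive HSP70 that serves every cell, was at 181, 235 and 152 RPKM in L635, against 199, 262 and 203 RPKM in DMP-777. In both groups replicate 2 was highest, the groups overlapped, and the log2 fold change was -0.24 with an interval from -0.95 to 0.48 (adjusted p = 0.827 by limma). Hspa8 exceeded Hspa1a by 41.8, 19.8 and 6.10 times in L635 replicates 1, 2 and 3, against 28.4, 28.8 and 22.1 times in DMP-777, both as RPKM. Hspa14, a partner of the ribosome-associated J-domain protein Dnajc2, was low, at 3.41 to 5.25 RPKM in L635 and 4.40 to 5.71 RPKM in DMP-777. Hspa12b, an endothelial relative of HSP70, reached 1.11 RPKM in L635 and 4.73 RPKM in DMP-777, and lay at the floor in 3 of the 6 libraries.

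The HSP110 genes Hspa4, Hsph1 and Hspa4l and the exchange factor Hspbp1, which help HSP70 release ADP, all had a positive log2 fold change (median 0.61), where 50.2% of all tested genes were above 0. None of the 4 passed the adjusted threshold, and no test was made over the 4 together. The groups lay apart for Hspa4 alone (1 of 4, 25.0%), where 16.0% of all tested genes lay apart. Other exchange factors went both ways. The log2 fold change was -1.01 for Sil1, -0.58 for Bag3, -0.54 for the mitochondrial Grpel1, -0.34 for Bag1 and -0.13 for Bag5. It was 0.11 for Grpel2, 0.11 for Bag2 and 0.08 for Bag4. Of these, all but Sil1 and Bag3 were named after their values were seen. The HSP110 genes and Hspbp1 kept their sign under each scaling, covariate and left-out library that was tried, with medians from 0.32 to 0.86. Hspa4, on chromosome 11 from 53259814 to 53300457, had 51.7, 59.0 and 49.7 RPKM in L635, against 40.1, 21.4 and 34.1 RPKM in DMP-777. Every L635 library lay above every DMP-777 library, the log2 fold change was 0.77 ± 0.31 (SE) with an interval from 0.10 to 1.44, and its adjusted p from limma was 0.443. Hsph1, whose promoter is shown above, had 20.3, 16.8 and 22.8 RPKM in L635, against 15.0, 11.1 and 18.8 RPKM in DMP-777. Its groups overlapped through L635 replicate 2, and the log2 fold change was 0.41 with an interval from -0.31 to 1.13 (adjusted p = 0.691 by limma). Hspbp1 had 9.93, 2.78 and 11.9 RPKM in L635, against 2.14, 4.66 and 4.63 RPKM in DMP-777, so that 2 of 3 L635 libraries were above all of DMP-777 (log2 fold change 0.80, adjusted p = 0.632 by limma).

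Of the cytosolic HSP90 pair, Hsp90ab1, the constitutive form, was at 246, 286 and 174 RPKM in L635, against 223, 272 and 204 RPKM in DMP-777. The mean was 235 ± 56.9 RPKM in L635 and 233 ± 35.1 RPKM in DMP-777 (SD, n = 3 each), with a log2 fold change of -0.01 and an interval from -0.75 to 0.74 (adjusted p = 0.996 by limma). Hsp90aa1, the inducible form, was at 64.7, 103 and 92.5 RPKM in L635, against 79.2, 66.9 and 50.5 RPKM in DMP-777. Here L635 replicates 2 and 3 lay above DMP-777 and replicate 1 did not, with a log2 fold change of 0.40 (adjusted p = 0.678 by limma). The constitutive form exceeded the inducible one by 3.80, 2.77 and 1.88 times in L635, against 2.81, 4.07 and 4.05 times in DMP-777.

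J-domain proteins, which hand clients to HSP70, form the largest branch of the family, and their cytosolic and nuclear classes did not share a direction. Class A genes were higher in L635 for 2 of 2 tested, class B for 1 of 6 and class C for 8 of 11, with medians of 0.35, -0.16 and 0.11, and with libraries scaled to the same RPKM sum class B was higher for 4 of 6. Class C was higher for 4 of 11 (median -0.06) with the epithelial marker level as a covariate and for 5 of 10 without L635 replicate 3. Dnaja1, the main class A partner of HSP70, had 32.2, 53.2 and 40.0 RPKM in L635, against 37.1, 23.6 and 25.7 RPKM in DMP-777, with 1 overlapping library on each side (log2 fold change 0.52, adjusted p = 0.59 by limma). Its relative Dnaja2 was steadier, at 54.8, 47.4 and 48.9 RPKM in L635 against 55.4, 36.0 and 44.0 RPKM in DMP-777. The heat-inducible class B gene Dnajb1 had 20.9, 29.5 and 29.3 RPKM in L635, against 21.7, 41.0 and 34.2 RPKM in DMP-777. Replicate 1 was lowest in both groups, and the log2 fold change was -0.25 (adjusted p = 0.82 by limma). Dnajb6, which holds back protein aggregates and carries a 3-unit heat shock element, had 19.5, 22.0 and 19.0 RPKM in L635, against 18.8, 18.6 and 27.3 RPKM in DMP-777 (log2 fold change -0.08). Dnajb5 was near the floor, at 4.72, 1 and 1 RPKM in L635 against 1.33, 3.55 and 2.71 RPKM in DMP-777 (log2 fold change -0.26, adjusted p = 0.876 by limma).

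Within class C, the groups lay apart for 2 of 11 tested genes (18.2%), in opposite directions, where 16.0% of all tested genes lay apart. Dnajc2, which works at the ribosome exit, had 8.21, 9.89 and 18.4 RPKM in L635, against 7.57, 5.33 and 3.74 RPKM in DMP-777. The gap between the groups was under 1 RPKM, and the log2 fold change was 0.97 ± 0.45 (SE) with an interval from 0.01 to 1.94 (adjusted p = 0.494 by limma). Dnajc8, found with splicing factors, had 23.7, 22.6 and 24.9 RPKM in L635, against 27.3, 39.9 and 34.1 RPKM in DMP-777. All L635 values were below all DMP-777 values, with a log2 fold change of -0.47 (adjusted p = 0.594 by limma). Dnajc21, a factor of ribosome biogenesis, overlapped at 5.71, 7.06 and 12.0 RPKM in L635 against 8.53, 3.23 and 1.41 RPKM in DMP-777 (log2 fold change 0.95, adjusted p = 0.575 by limma). Dnajc5, the cysteine string protein of secretory vesicles, was close to level at 25.3, 23.5 and 17.8 RPKM in L635 against 20.3, 22.5 and 24.3 RPKM in DMP-777 (log2 fold change -0.02, adjusted p = 0.984 by limma).

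The chaperones of the endoplasmic reticulum were among the most abundant members, and 8 of 15 tested were higher in L635 (median log2 fold change 0.08). That split became 4 of 15 with the epithelial marker level as a covariate and 12 of 15 with libraries scaled to the same RPKM sum, so the group has no direction that holds across scalings. The 3 genes whose promoters carry the ER stress element all had positive log2 fold changes, with a median of 0.36. Of all tested genes, 50.2% were above 0. Each of the 3 kept that sign under every setting tried, from 0.10 to 0.70 in Hspa5, from 0.16 to 0.86 in Hsp90b1 and from 0.48 to 0.89 in Dnajc3. Genes outside the members that carry the element were not compared. Hspa5 (BiP), the HSP70 of this compartment, had 142, 160 and 125 RPKM in L635, against 132, 120 and 122 RPKM in DMP-777. The groups overlapped, with a log2 fold change of 0.18 and an interval from -0.45 to 0.81 (adjusted p = 0.851 by limma). Hsp90b1 (GRP94), its HSP90, had 141, 201 and 122 RPKM in L635, against 148, 105 and 105 RPKM in DMP-777, where replicate 1 was the high library (log2 fold change 0.36, adjusted p = 0.718 by limma). Dnajc3 (p58IPK), the BiP partner that inhibits the kinase PERK, had 26.7, 29.1 and 35.5 RPKM in L635, against 23.8, 16.6 and 18.4 RPKM in DMP-777. Its groups did not overlap, and the log2 fold change was 0.61 ± 0.30 (SE) with an interval from -0.04 to 1.27 (adjusted p = 0.507 by limma). Dnajb9 (ERdj4), a BiP partner that XBP1 induces, was at 13.2, 19.9 and 20.7 RPKM in L635 and 11.3, 21.3 and 19.0 RPKM in DMP-777, a log2 fold change of 0.08 (adjusted p = 0.954 by limma). Dnajc22 had the most negative value of this compartment, -1.03, from 4.81, 3.34 and 3.48 RPKM in L635 against 12.6, 13.7 and 3.79 RPKM in DMP-777 (adjusted p = 0.508 by limma). DMP-777 replicates 1 and 2 carried that difference, and replicate 3 lay with L635.

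Mitochondrial chaperones were lower in L635 for 7 of 10 tested (median log2 fold change -0.36). Their median came to -0.05 after quantile normalization, where that of all tested genes was 0.00. With libraries scaled to the same RPKM sum it came to -0.09, where that of all tested genes was 0.24. Hspd1, the mitochondrial HSP60, had 107, 114 and 106 RPKM in L635, against 106, 129 and 110 RPKM in DMP-777. On the deposited scale its highest library exceeded its lowest by 1.22 times, and of 2685 genes with a mean of 20 RPKM or more only 13, Hspd1 included, had a ratio that low (0.484%). Of the Hspd1 transcript, 44.8% of 50-base stretches are shared with other genes, mainly the pseudogene Hspd1-ps3. The groups overlapped, and the log2 fold change of Hspd1 was -0.08 as deposited and 0.47 after quantile normalization. Hspe1, the HSP10 lid of the same chaperonin, starts within Hspd1 on the opposite strand and had 81.0, 66.7 and 56.8 RPKM in L635, against 98.0, 118 and 75.2 RPKM in DMP-777. The groups overlapped through L635 replicate 1 and DMP-777 replicate 3, and the log2 fold change was -0.49 (adjusted p = 0.591 by limma). Although both genes share their promoter region, the ratio of Hspd1 to Hspe1 in RPKM was 1.32, 1.71 and 1.87 in L635, against 1.08, 1.10 and 1.46 in DMP-777, again overlapping.

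Hspa9 (mortalin), the HSP70 of the import motor, had 70.0, 53.4 and 58.7 RPKM in L635, against 72.6, 76.5 and 74.6 RPKM in DMP-777. The groups lay apart by under 3 RPKM as deposited, with a log2 fold change of -0.30 (adjusted p = 0.728 by limma), which was 0.15 after quantile normalization. Dnajc15 (MCJ), a J-domain protein of the inner membrane, had 84.6, 54.9 and 43.7 RPKM in L635, against 89.4, 152 and 64.9 RPKM in DMP-777. DMP-777 replicate 2 stood far above the others, and the log2 fold change of -0.70 (adjusted p = 0.537 by limma) became 0.04 with the epithelial marker level as a covariate.

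Subunits of the CCT chaperonin, which folds actin and tubulin, were lower in L635 for 8 of 8 as deposited (median log2 fold change -0.17), but for 0 of 8 after quantile normalization (median 0.10) and for 2 of 8 with libraries scaled to the same RPKM sum (median 0.11). Relative to the median of all tested genes under that last scaling, 0.24, the median of the CCT subunits was lower there too. The 8 proteins occur once in each ring of the complex. In RPKM the subunits were far from equal: Cct2 was the highest and Cct3 the lowest in all 6 libraries. The ratio of Cct2 to Cct3 in RPKM was 5.44, 7.08 and 5.12 in L635, against 8.92, 9.43 and 6.31 in DMP-777, with DMP-777 replicate 3 inside the range of L635. This ratio depends on the length by which reads are divided. The annotated exonic length is 2557 bases for Cct2 and 6370 for Cct3, and their longest transcripts have 1959 and 3335 bases. How much of the ratio comes from length was not tested. Cct2, on chromosome 10 from 117050998 to 117063814, had 101, 93.5 and 90.9 RPKM in L635, against 130, 142 and 137 RPKM in DMP-777. Within each group the spread was small, and the means, 95.1 ± 5.20 RPKM in L635 and 136 ± 6.30 RPKM in DMP-777 (SD, n = 3 each), differed by more than that spread. Its log2 fold change was -0.51 ± 0.28 (SE) with an interval from -1.12 to 0.09 (adjusted p = 0.552 by limma), and it was 0.00 after quantile normalization.

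Cct6a behaved likewise, with 70.9, 78.6 and 65.8 RPKM in L635 against 94.9, 97.0 and 88.2 RPKM in DMP-777, and a log2 fold change of -0.38 (adjusted p = 0.656 by limma) that was 0.10 after quantile normalization. Groups lay apart for Cct2 and Cct6a, 2 of 8 subunits (25.0%), where 16.0% of all tested genes did so. The other 6 subunits overlapped between the treatments. Their log2 fold changes as deposited ran from -0.24 in Cct5 to -0.04 in Cct3, and Tcp1, the founding subunit, had 37.9, 27.0 and 28.8 RPKM in L635 against 31.3, 36.0 and 37.2 RPKM in DMP-777.

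**Figure D2:**
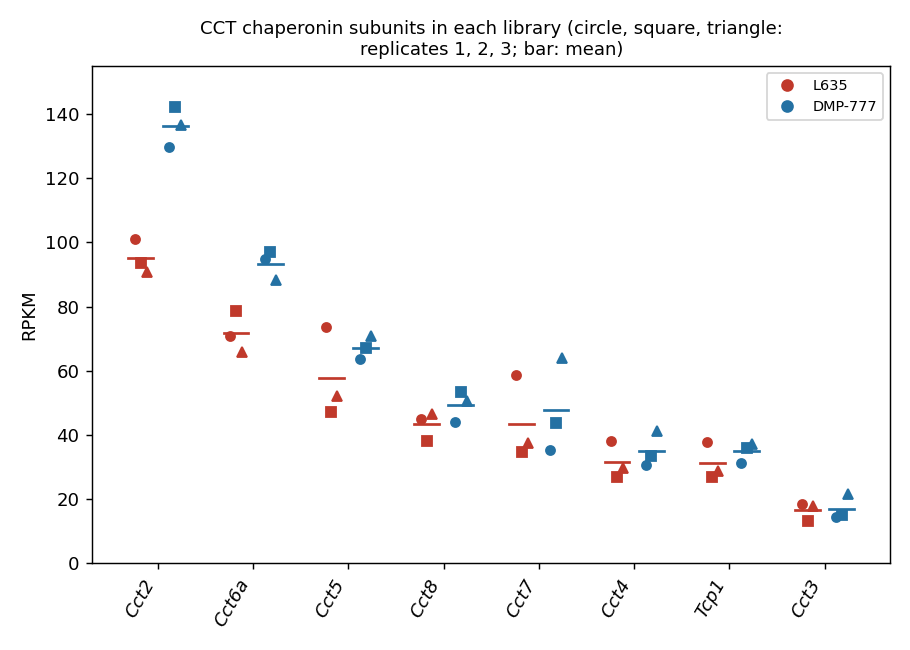
RPKM of the 8 CCT chaperonin subunits in each library, L635 in red left of DMP-777 in blue, with circle, square and triangle for replicates 1, 2 and 3 and bars for group means. Cct2 and Cct6a are the only subunits whose groups do not overlap on the deposited scale, and their log2 fold changes are 0.00 and 0.10 after quantile normalization. Of all tested genes, 16.0% have groups that do not overlap.

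Small heat shock proteins hold unfolded clients without ATP. Of the 8 that the naming rule takes in, 5 lay above the floor in too few libraries to be tested, and Hspb3 was at the floor in all 6. The 3 tested members were lower in L635, also under each scaling tried, but the log2 fold change of Hspb6 became 0.20 without L635 replicate 2 and 0.01 when DMP-777 replicate 3 was left out. Hspb1 (HSP25), on chromosome 5 from 135887919 to 135889563, had 1, 1.58 and 1 RPKM in L635, against 9.37, 5.95 and 1.24 RPKM in DMP-777. DMP-777 replicates 1 and 2 were high, replicate 3 lay among the L635 libraries near the floor, and the log2 fold change of -1.32 ± 0.53 (SE, interval -2.47 to -0.17, adjusted p = 0.443 by limma) was the largest of any member in size. Leaving out DMP-777 replicate 1 gave -0.86, and adding the epithelial marker level as a covariate gave -0.59. Hspb11 (IFT25), a protein of intraflagellar transport that is grouped here by name, had 4.28, 4.75 and 3.24 RPKM in L635, against 10.2, 8.44 and 7.19 RPKM in DMP-777. The groups lay apart, with a log2 fold change of -0.92 (adjusted p = 0.494 by limma). Hspb6 overlapped, at 7.93, 1.47 and 9.44 RPKM in L635 against 3.86, 6.60 and 15.0 RPKM in DMP-777, and Hspb8, the partner of Bag3, exceeded the floor clearly only in DMP-777 replicate 1, at 2.45 RPKM. Hspbap1, named for its binding to Hspb1, had 3.03, 3.89 and 4.11 RPKM in L635, against 2.71, 1 and 5.07 RPKM in DMP-777 (log2 fold change 0.39, adjusted p = 0.805 by limma). Cryab, a small heat shock protein outside the rule, had 10.5, 10.7 and 2.58 RPKM in L635, against 16.9, 60.6 and 9.11 RPKM in DMP-777. Its groups overlapped (log2 fold change -1.51, adjusted p = 0.451 by limma), and Cryab was named after its values were seen.

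Of the regulators, Hsf1, the master factor of the heat shock response, had 44.9, 18.3 and 34.7 RPKM in L635, against 24.9, 37.5 and 39.3 RPKM in DMP-777. The groups overlapped fully, with a log2 fold change of -0.12 and an interval from -0.90 to 0.67 (adjusted p = 0.929 by limma). Bag3, an HSF1 target that links HSP70 to autophagy, had 20.5, 14.4 and 19.3 RPKM in L635, against 22.4, 31.3 and 28.5 RPKM in DMP-777. Its groups lay apart, with a log2 fold change of -0.58 ± 0.31 (SE, adjusted p = 0.544 by limma). Read by promoter on the deposited scale, the 16 tested members with a heat shock element core comprised 5 higher in L635 and 11 lower (median -0.12), and the 4 with the 3-unit form comprised 1 higher and 3 lower. These counts turned with the scaling: the 16 comprised 11 higher and 5 lower after quantile normalization and 10 higher and 6 lower with libraries scaled to the same RPKM sum, and the 4 comprised 3 higher and 1 lower under both. With the same RPKM sum the medians of the 16 and the 4 were 0.16 and 0.20, against 0.24 over all tested genes. With the epithelial marker level as a covariate, the 16 comprised 3 higher and 13 lower. With 1 library left out, more members with a core were lower than higher each time.

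Over all 70 tested members, log2 fold changes were above 0 for 30 (42.9%, against 50.2% of all tested genes) and below 0 for 40 (against 49.8%), and their median was -0.06 against 0.00 over all tested genes. That majority turned to 45 higher and 25 lower (median 0.10) after quantile normalization, and to 50 higher and 20 lower (median 0.20) with libraries scaled to the same RPKM sum, a scaling that moved the median of all tested genes to 0.24. At an unadjusted p below 0.05 from limma there were 2 higher members, Hspa4 and Dnajc2, against a background of 3.78% of all tested genes, and 2 lower, Hspb1 and Hspb11, against 6.33%. Together this is 5.71% of the tested members where 10.1% of all tested genes reached that p. The groups lay apart for 9 members, 3 higher (Hspa4, Dnajc2 and Dnajc3) and 6 lower (Hspb11, Bag3, Cct2, Cct6a, Dnajc8 and Hspa9), or 12.9% where 16.0% of all tested genes did so. By direction the background was 7.25% higher and 8.75% lower. Only Hspb1 and Dnajc22 had a log2 fold change of 1 or more in size, which 7.53% of all tested genes had. On the deposited scale the shares of members by unadjusted p, by groups apart and by size were all under the background, while the share below 0 was above it. The share at an unadjusted p below 0.05 was not so under every setting: it was 10 of 70 members after quantile normalization, against 9.22% of all tested genes, and 7 of 85 members with no filter on low values, against 5.22%.

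**Figure D3:**
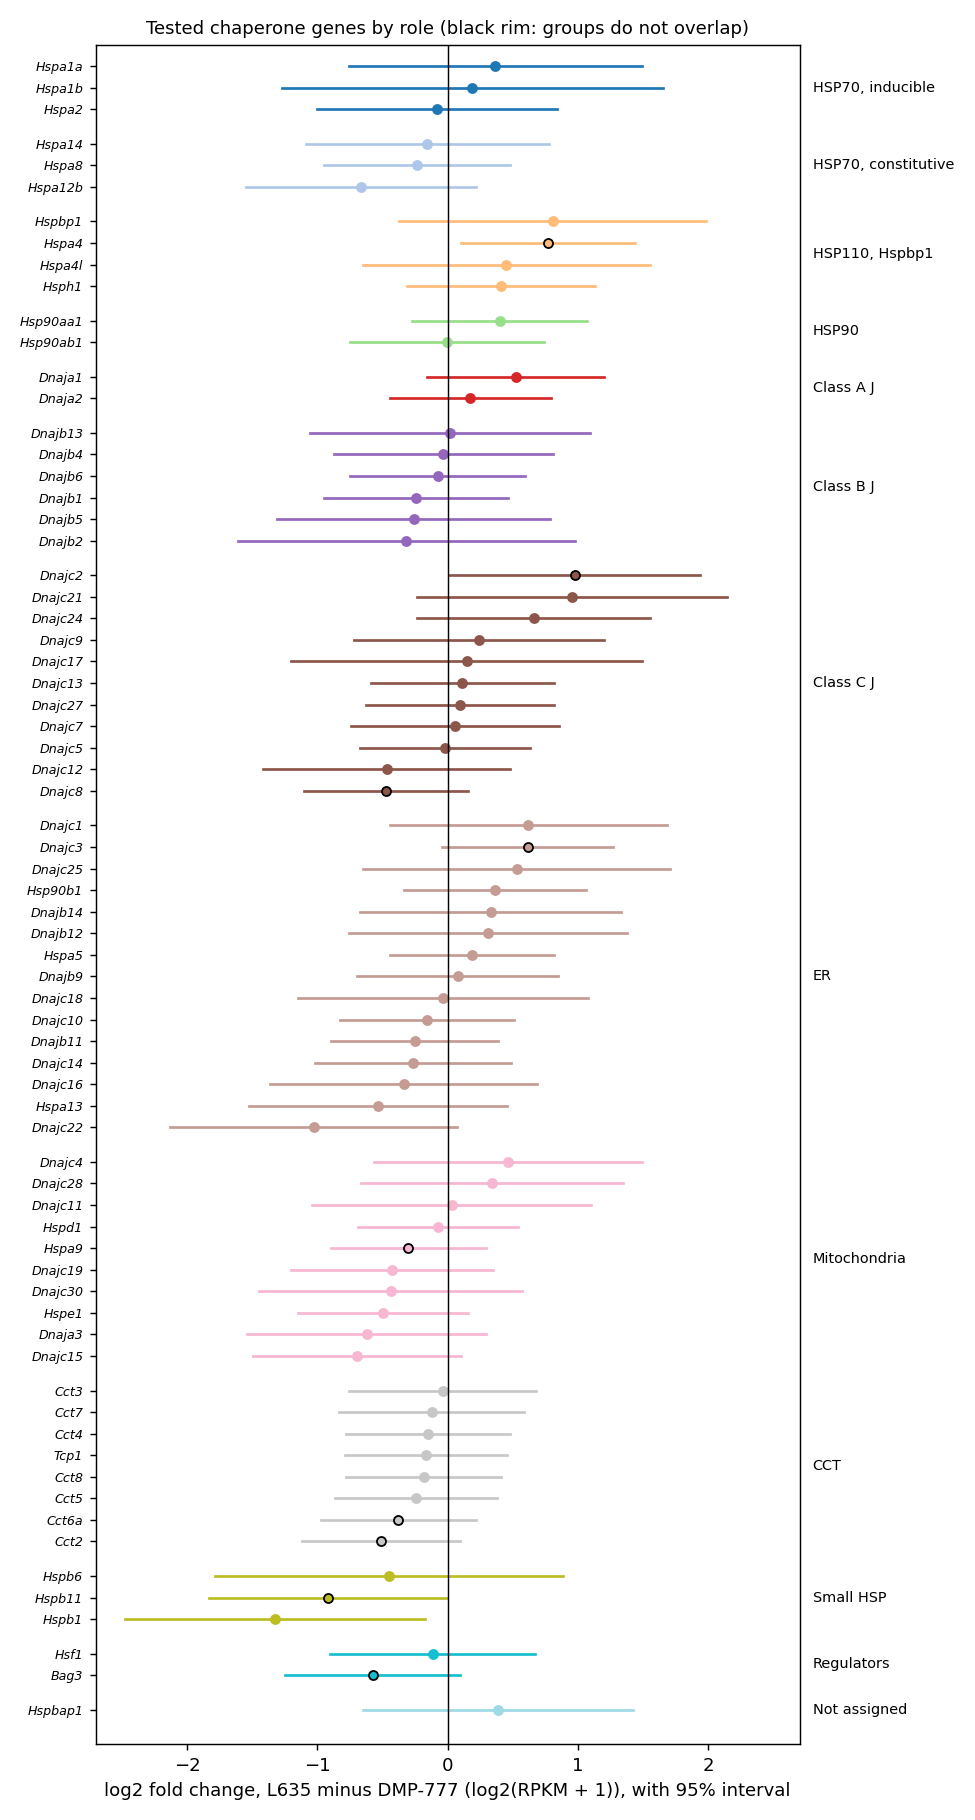
Log2 fold change (L635 minus DMP-777) of the 70 tested members with its 95% interval from limma, ordered by role from top to bottom; a black rim marks members whose groups do not overlap. No member passed the adjusted threshold; the 3 HSP110 genes and Hspbp1 lie right of 0, and the 8 CCT subunits lie left of it on this scale but not after quantile normalization (0 of 8) or with the same RPKM sum (2 of 8).

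Abundant members varied little from library to library on the deposited scale. Among 29 members with a mean of 20 RPKM or more, the highest library exceeded the lowest by a median of 1.73 times, against 2.48 times over the 2685 genes at that level. After Hspd1 the steadiest were Hspa5 (1.33 times) and Cct8 (1.39 times). The least steady were Dnajc9, a histone chaperone of dividing cells (3.63 times), Dnajc15 (3.48) and Hspa4 (2.75). Dnajc9 had 20.8, 15.5 and 33.3 RPKM in L635, against 9.16, 20.6 and 33.0 RPKM in DMP-777, and was named after its values were seen, as were Dnajc5b, Cct3, Cct5, Hspa1l, Hspa4l and Hspb3.

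Co-chaperones outside the naming rule were read from lists of 4 kinds, with 48 of 51 genes tested, of which 18 were higher in L635 and 30 were not. The median log2 fold change was -0.20, or 0.065 with libraries scaled to the same RPKM sum, where that of all tested genes was 0.24. None of the 48 passed the adjusted threshold. Prefoldin, which delivers actin and tubulin to CCT, and the other chaperonin helpers were lower for 8 of 8 tested as deposited, with a median of -0.47, and for 7 of 8 after quantile normalization (median -0.51) and with libraries scaled to the same RPKM sum (median -0.22). The groups of 4 of these 8 lay apart, where 8.75% of all tested genes lay apart in that direction. Pfdn4 had 6.76, 2.94 and 6.12 RPKM in L635, against 17.2, 16.9 and 12.5 RPKM in DMP-777, a log2 fold change of -1.45 ± 0.41 (SE, adjusted p = 0.406 by limma). Pfdn2 had 17.8, 8.78 and 21.4 RPKM in L635, against 38.6, 27.2 and 28.1 RPKM in DMP-777, a log2 fold change of -0.99 (adjusted p = 0.428 by limma). In both, the highest L635 library was below the lowest DMP-777 library.

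HSP90 co-chaperones had 6 genes higher and 8 lower in L635 (median -0.04), or 10 higher and 4 lower after quantile normalization. The phosphatase Ppp5c had 12.8, 7.01 and 17.9 RPKM in L635, against 37.9, 26.0 and 28.0 RPKM in DMP-777, without overlap (log2 fold change -1.29, adjusted p = 0.406 by limma). The cyclophilin Ppid went the other way at 1.06, with 8.66, 12.3 and 16.2 RPKM in L635 against 8.98, 1.58 and 8.50 RPKM in DMP-777 (adjusted p = 0.526 by limma). HSP70 co-chaperones had 4 genes higher and 7 lower in L635 (median -0.13), or 6 higher and 5 lower with the same RPKM sum. Stub1 (CHIP), the ubiquitin ligase that marks HSP70 clients for degradation, had 14.9, 7.81 and 10.7 RPKM in L635, against 15.4, 23.0 and 23.3 RPKM in DMP-777 (log2 fold change -0.85, adjusted p = 0.455 by limma), and Sil1, the exchange factor of BiP, had -1.01 (adjusted p = 0.494 by limma). The groups of Stub1 and Sil1 lay apart, 2 of 11 in this list (18.2%), where 16.0% of all tested genes did so.

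Other heat shock factors and HSF1 targets had 8 genes higher and 7 lower in L635 (median 0.04), or 7 higher and 8 lower after median centring. Hsbp1, a small protein that binds HSF1 trimers, had 112, 72.0 and 62.1 RPKM in L635, against 164, 250 and 162 RPKM in DMP-777, without overlap (log2 fold change -1.23, adjusted p = 0.406 by limma). Ier5, a target that feeds back on HSF1, had 27.4, 65.2 and 37.5 RPKM in L635, against 11.8, 18.8 and 27.5 RPKM in DMP-777, with groups that met at 27.4 and 27.5 RPKM (log2 fold change 1.11, adjusted p = 0.419 by limma).

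**Figure D4:**
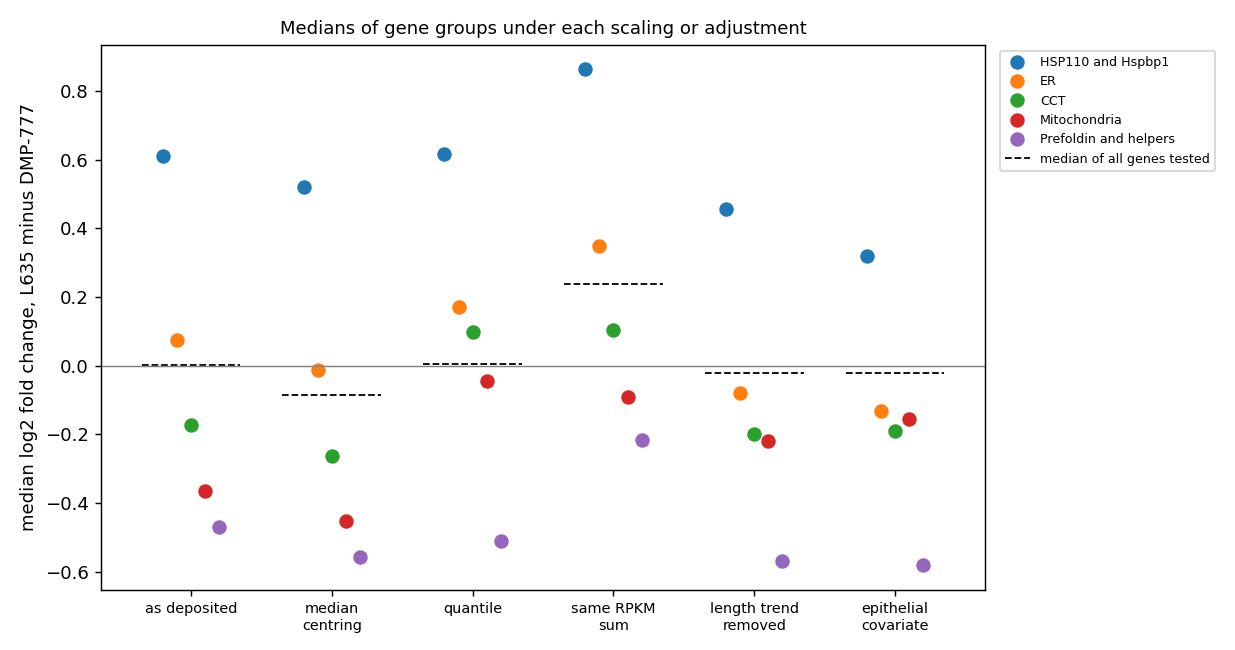
Median log2 fold change (L635 minus DMP-777) of 4 groups of members and of prefoldin and its helpers under the deposited scale and 5 other scalings or adjustments; dashed lines give the median of all tested genes. The HSP110 genes and Hspbp1 stay highest (0.32 to 0.86 in this plot) and prefoldin lowest (-0.22 to -0.58), while CCT changes sign under quantile normalization and scaling to the same RPKM sum and the endoplasmic reticulum group changes sign under median centring, length adjustment and the epithelial covariate.

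Other cell types were present in both groups, and fewer cells of a type cannot be told apart from less RNA per cell in bulk samples. The 13 macrophage markers in the table lay above the floor in all 6 libraries and summed to 1378 to 2682 RPKM in L635 and 1585 to 2729 RPKM in DMP-777; the F4/80 gene Emr1 was at 41.3 to 127 RPKM in L635 and 46.1 to 94.3 RPKM in DMP-777. Surface mucous markers summed to 2987 to 3434 RPKM in L635 and 4838 to 12586 RPKM in DMP-777 (9 of 9 lower in L635, none at the floor), parietal markers to 219 to 963 RPKM in L635 and 556 to 1540 RPKM in DMP-777 (1 to 2 of 10 at the floor), and general epithelial markers to 653 to 887 RPKM in L635 and 812 to 1236 RPKM in DMP-777 (at most 1 of 8 at the floor). Chief and neck cell markers summed to 781 to 891 RPKM in L635 and 944 to 1280 RPKM in DMP-777, mast cell markers to 7.15 to 827 RPKM in L635 and 199 to 356 RPKM in DMP-777, and T and NK cell markers to 10.3 to 69.0 RPKM in L635 and 24.0 to 29.3 RPKM in DMP-777. Chaperone genes are used by all of these cells, and the part of the epithelial RNA in the values above was not tested. With the epithelial marker level as a covariate, 21 of the 70 tested members changed sign. After quantile normalization 19 did so, and with libraries scaled to the same RPKM sum 20 did. In the fit with the covariate, 1.69% of all tested genes had an unadjusted p below 0.05 from limma. Further, log2 fold change followed exonic length over all 12002 tested genes with an annotated length (Spearman rho 0.37) and less so over the 70 members (rho 0.24), which are descriptions across genes of the same libraries. Of all members, 20 overlap a gene on the opposite strand, and since it is not stated whether counting used the strand, reads of such pairs cannot be told apart.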

How the data were processed

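Expression was measured by single-end RNA sequencing of amplified total RNA from sorted F4/80-positive corpus cells, 3 libraries of L635-treated and 3 of DMP-777-treated mice, grouped by sample title. FastQC, TopHat 1.4, SAMtools and genome build mm9 are named in the submitters' processing notes, while no source used here gives the counting tool or its use of strand. The table deposited by the authors holds 1 normalized value per gene and library, recognised as RPKM because the values times exonic length (GENCODE M21) summed in each library to between 89.5% and 101% of the total that RPKM of all reads would give. Sequencing depth per library is unknown, because the steps between low values did not settle on 1 read's worth, so no counting interval and no count test is given. Replicate number, 3 per group, limits the precision. There were 0 unused columns of per-sample values.

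The gene positions in the table overlap the same gene of GRCm38 (GENCODE M21) for 99.8% of genes, and 79.4% have an identical end to within 1 bp, so they are given as GRCm38 positions although the notes name mm9. Promoters are RefSeq windows of GRCm38.p6.

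L635 was compared with DMP-777 using limma 3.58.1 in R 4.3.3 (mean-variance trend, two-sided, Benjamini-Hochberg over 12102 genes) on log2(RPKM + 1), keeping genes above the floor of 1 in at least 3 libraries. The pseudocount of 1 and the floor understate fold changes of low genes. The fit was checked on simulated data. Groups were called apart where all libraries of 1 treatment lay above all of the other. Alternatives were other pseudocounts and filters, quantile normalization, median centring, no trend, array weights, an epithelial covariate (mean log2 level of 8 general epithelial markers), removal of a trend on exonic length, each library left out and, chosen after seeing the data, libraries scaled to the same RPKM sum.

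Members and lists were chosen with earlier results of these data known, so no test was made over them. Named in the text were, in each role group, the 2 members with the highest mean and the 2 with the smallest p, a fixed list of well-known chaperones, and in each co-chaperone list the 2 genes with the smallest p; others are said to have been named after their values were seen. Where transcripts share sequence with other genes, as those of Hspa1a, Hspa1b, Hspa8, Hsp90aa1, Hspb1 and Hspd1 do, values are uncertain.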

Additional observations from a re-analysis of the deposited data

How the results depend on the processing

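No gene passed the adjusted threshold under any alternative except 1 gene outside the chaperones, 9130204L05Rik, without DMP-777 replicate 3 (limma adjusted p = 0.045). The number of members higher in L635 at an unadjusted p below 0.05 was 2, and it became 1 with a pseudocount of 5 or no trend, 7 after quantile normalization, 0 after median centring or with the epithelial covariate, and 6 with libraries scaled to the same RPKM sum. The number lower was 2, and it became 1 with a pseudocount of 0.1, with the length trend removed or with the same RPKM sum, 5 with no filter on low values, 4 after median centring and 0 with the epithelial covariate. With 1 library left out, between 0 and 4 members were higher and between 0 and 3 lower, and between 0 and 1 genes passed in all. The median log2 fold change of the members was -0.06, from -0.18 to 0.01 with 1 library left out, and 0.20 with the same RPKM sum. Under that sum the median of the 48 co-chaperone genes was 0.065 and that of all tested genes 0.24. The causes of these shifts were not tested. Of 39 tested members named by rule, 11 changed sign after quantile normalization, 11 with the same RPKM sum, 10 with the epithelial covariate, 3 with the length trend removed and 1 after median centring.

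No paired analysis was possible because the numbers in the sample titles are identifiers, none of which recurs in the other group. The limits are the 3 libraries per group, the unknown depth, the floor of 1 and the epithelial RNA in both groups.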
